A study of Mus musculus with 9 samples.

Results

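RF8 mouse embryonic stem (ES) cells carrying Nanog differed from the same line carrying EGFP, both with LIF, in 524 of 10223 genes compared. These are the genes at least 2-fold apart from EGFP in the same direction in both the Nanog WT and the Nanog L122A library, with at least 5 CPM (counts scaled to library size) in the higher library of each pair. Of them, 320 were lower in both Nanog libraries (3.13% of the genes compared) and 204 were higher (2.00%). The lower genes included genes of the contractile cytoskeleton, of the extracellular matrix, of simple-epithelium keratins and of the formative epiblast. The higher genes were fewer and by smaller ratios, and included the hypoxia-inducible Bnip3, the light chain gene Myl4 and the signalling ligand gene Bmp4. The balance of directions depends on the scaling and the libraries: the counts were 526 lower and 101 higher with total counts, and 519 and 520 with WT alone. These values chose the genes, so they describe the 3 libraries and carry no test.

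Each group was 1 library of RF8 cells in the routine culture with 1000 units of LIF per ml, fetal calf serum and puromycin: one transfected with EGFP, one with Nanog WT and one with Nanog L122A. The 3 libraries are part of 9, in which each transfectant was also grown without LIF, and without LIF in 5 µM retinoic acid (RA). The labels give 1 library per combination and do not say whether a transfectant was 1 clone or a pool, which promoter drove the construct, from which species Nanog came, or how long a culture lasted. With 1 transfectant per construct and 1 EGFP library in this culture, the effect of the Nanog constructs and any trait of these EGFP cells cannot be told apart.

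Nanog is a homeodomain transcription factor that, with Oct4 and Sox2, holds mouse ES cells in the pluripotent state, and excess Nanog lets them self-renew without LIF. LIF acts through the receptor subunits Lifr and gp130 and the factor STAT3. ES cells in serum and LIF are a mixture in which some cells lower naive factors and raise genes of the formative epiblast, the stage that precedes lineage commitment. Genes of actin stress fibres and of secreted matrix proteins respond to the serum response factor (SRF), whose site is the CArG box, and to YAP with its DNA-binding partners, the TEAD proteins.

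The 3 libraries held between 24166395 and 28692848 counts, so 3 counts correspond to between 0.101 and 0.148 CPM. Ribosomal RNA genes took 15.9% of counts in EGFP against 23.1% in WT and 20.6% in L122A, and mitochondrial genes 8.43%, 12.5% and 9.11%. CPM values are scaled by trimmed-mean (TMM) factors, which put the median log2 ratio of all genes at -0.01 in WT and 0.00 in L122A; scaled by total counts alone these medians were -0.36 and -0.18. Summed over 7 ES cell markers the level was 2085 CPM in EGFP against 3311 in WT and 2541 in L122A, and 0 of the 7 passed the rule in either direction. The largest terms were Dppa5a, at 699, 1307 and 561 CPM, and Zfp42, at 621, 1076 and 899 CPM. Dppa5a was thus lower than EGFP in L122A, and Sox2 was lower in both, at 86.0, 58.7 and 66.4 CPM.

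Nanog itself (ENSMUSG00000012396, mm9 chromosome 6, 122657507 to 122664651) was at 385 CPM in EGFP against 223 in WT and 240 in L122A. It was therefore 1.73-fold lower in WT (95% Poisson interval 1.67 to 1.79) and 1.61-fold lower in L122A (1.56 to 1.66), inside the 2-fold limit. Counting error alone is in all such intervals. Whether transcripts of the construct are counted under this gene is not in the labels, and with LIF its level does not tell the labels apart. Without LIF it stood at 291 CPM in EGFP against 168 and 130 CPM for WT and L122A; with RA it stood at 0.873 against 195 and 259 CPM, higher in both Nanog libraries.

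**Figure D1:**
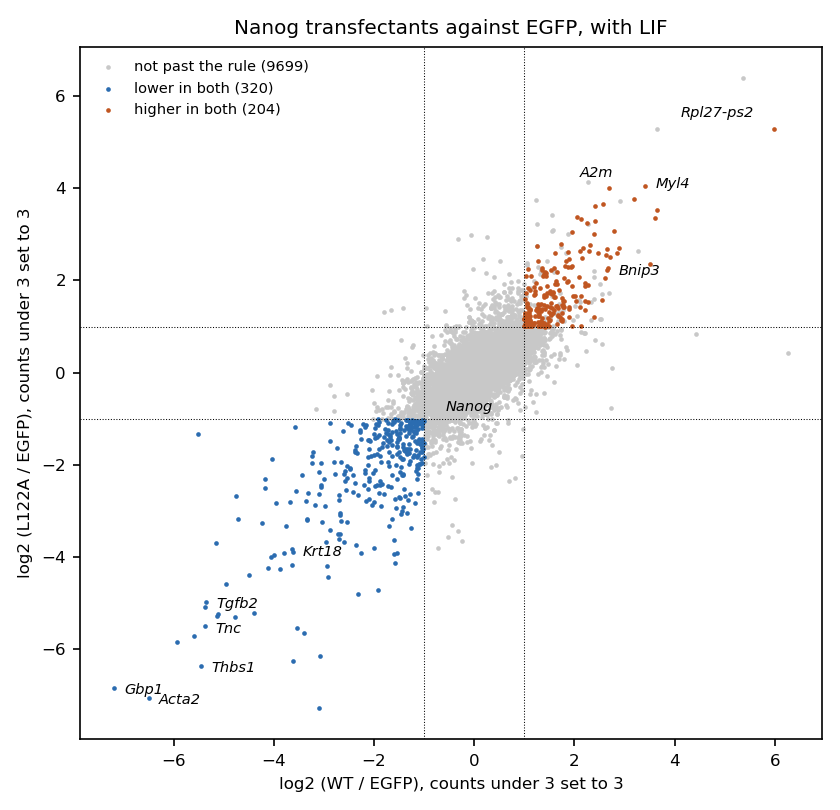
Each point is 1 of the 10223 genes with at least 5 CPM in a library with LIF, at its log2 ratio of WT over EGFP (x axis) and of L122A over EGFP (y axis); dotted lines mark 2-fold. The 320 lower genes (blue) reach further from 0 than the 204 higher genes (orange), and grey points past both lines had under 5 CPM in the higher library of 1 pair.

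Among the 320 lower genes the median ratio was 3.28-fold in WT and 3.53-fold in L122A, 92 were at least 4-fold lower in both and 27 at least 10-fold lower in both. Their median level was 14.6 CPM in EGFP against 3.97 in WT and 3.57 in L122A. Of the 204 higher genes, whose median ratio was 2.82-fold in both, 30 passed 4-fold and 4 passed 10-fold in both libraries. Just inside the limit lay Fbxo46, at 5.33 CPM in EGFP against 2.66 in WT and 1.85 in L122A, and Mettl15, at 3.99, 7.99 and 8.90 CPM. Just outside lay Dse, at 41.8, 20.9 and 19.7 CPM, and Arhgap30, at 4.32, 8.63 and 12.8 CPM, whose WT ratios fell just short of 2-fold.

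Actin and actin-binding genes stood among the lowest ratios. Acta2, smooth muscle α-actin (ENSMUSG00000035783, mm9 chromosome 19, 34316014 to 34329810), was at 120 CPM in EGFP against 1.33 in WT and 0.904 in L122A. With 27 counts in WT and 20 in L122A, it was 90.4-fold (interval 62.0 to 137) and 133-fold (86.0 to 218) under EGFP. Its paralogs Actc1, cardiac α-actin, and Acta1, skeletal α-actin, were looked up after their values were seen. Actc1 was at 18.4 CPM in EGFP against 0.592 in WT and 0.768 in L122A, and Acta1 at 10.3, 0.838 and 0.0452 CPM, the last being 1 count. The 3 actins are nearly identical as proteins and related in coding sequence, so some reads may have been shared between them and each value is uncertain.

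The promoters of these actin genes are shown because all 3 genes were lower in both Nanog libraries and because the family is a textbook target of SRF. Sequences are from RefSeq (GRCm38.p6), 250 bases before to 50 after the annotated start, read 5′ to 3′ along the gene, all on the minus strand. Capitals mark each exact match to the TEAD motif GGAATG, on either strand, or to the CArG box, read as CCWWWWWWGG with W for A or T.
Acta2, chr19:34255324-34255623: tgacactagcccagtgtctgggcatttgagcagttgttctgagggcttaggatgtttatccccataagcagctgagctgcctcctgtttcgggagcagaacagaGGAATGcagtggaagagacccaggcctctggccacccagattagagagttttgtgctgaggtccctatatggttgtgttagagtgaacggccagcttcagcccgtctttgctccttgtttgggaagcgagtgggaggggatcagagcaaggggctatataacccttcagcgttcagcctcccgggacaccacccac
Acta1, chr8:123894726-123895025: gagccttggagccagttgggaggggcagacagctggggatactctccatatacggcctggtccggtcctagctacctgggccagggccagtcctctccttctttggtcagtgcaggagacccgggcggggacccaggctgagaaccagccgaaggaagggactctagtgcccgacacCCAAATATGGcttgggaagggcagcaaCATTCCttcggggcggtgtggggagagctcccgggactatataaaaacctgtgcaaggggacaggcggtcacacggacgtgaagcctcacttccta
Actc1, chr2:114052826-114053125: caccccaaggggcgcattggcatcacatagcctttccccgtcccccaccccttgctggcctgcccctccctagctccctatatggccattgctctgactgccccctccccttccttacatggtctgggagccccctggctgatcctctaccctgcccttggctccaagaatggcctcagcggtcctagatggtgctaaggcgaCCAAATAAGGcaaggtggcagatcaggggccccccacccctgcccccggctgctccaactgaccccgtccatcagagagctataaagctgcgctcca
The Acta2 window held the TEAD motif, with its first base at -146 from the start, and no exact CArG match. Near matches were not counted, and this window holds such stretches, ccctatatgg and ccttgtttgg. The lack of an exact match therefore does not mean that Acta2 lacks an SRF site. In Acta1 a CArG match began at -73 and a TEAD match on the other strand at -46, and in Actc1 a CArG match began at -47. Of all 32851 RefSeq promoter windows of this length, 1.63% held a CArG match and 14.7% the TEAD motif. A match is a stretch of letters and was not tied to binding here.

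Other genes of the contractile list shared the direction. Tagln, the actin-bundling protein transgelin, was at 111 CPM in EGFP against 4.93 in WT and 5.29 in L122A, a ratio of 22.5-fold (18.4 to 27.7) and 20.9-fold (17.4 to 25.4). Tpm1, a tropomyosin that lines actin filaments, was at 430, 71.0 and 94.4 CPM. Cnn1, a calponin of smooth muscle, was at 10.7, 2.51 and 3.39 CPM. In all, 6 of the 13 contractile genes with at least 5 CPM were lower and 1 was higher, with a median log2 ratio of -1.84 in WT and -1.0 in L122A, beside 0.01 and 0.01 for all genes. With total-count scaling the list had 10 lower and 0 higher genes. The higher gene was Des, the muscle intermediate filament desmin, at 4.42 CPM in EGFP against 9.17 in WT and 12.6 in L122A. Myh11, the smooth muscle myosin heavy chain, was under 1 CPM in all 3 libraries, so the defining gene of mature smooth muscle was near 0 throughout.

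**Figure D2:**
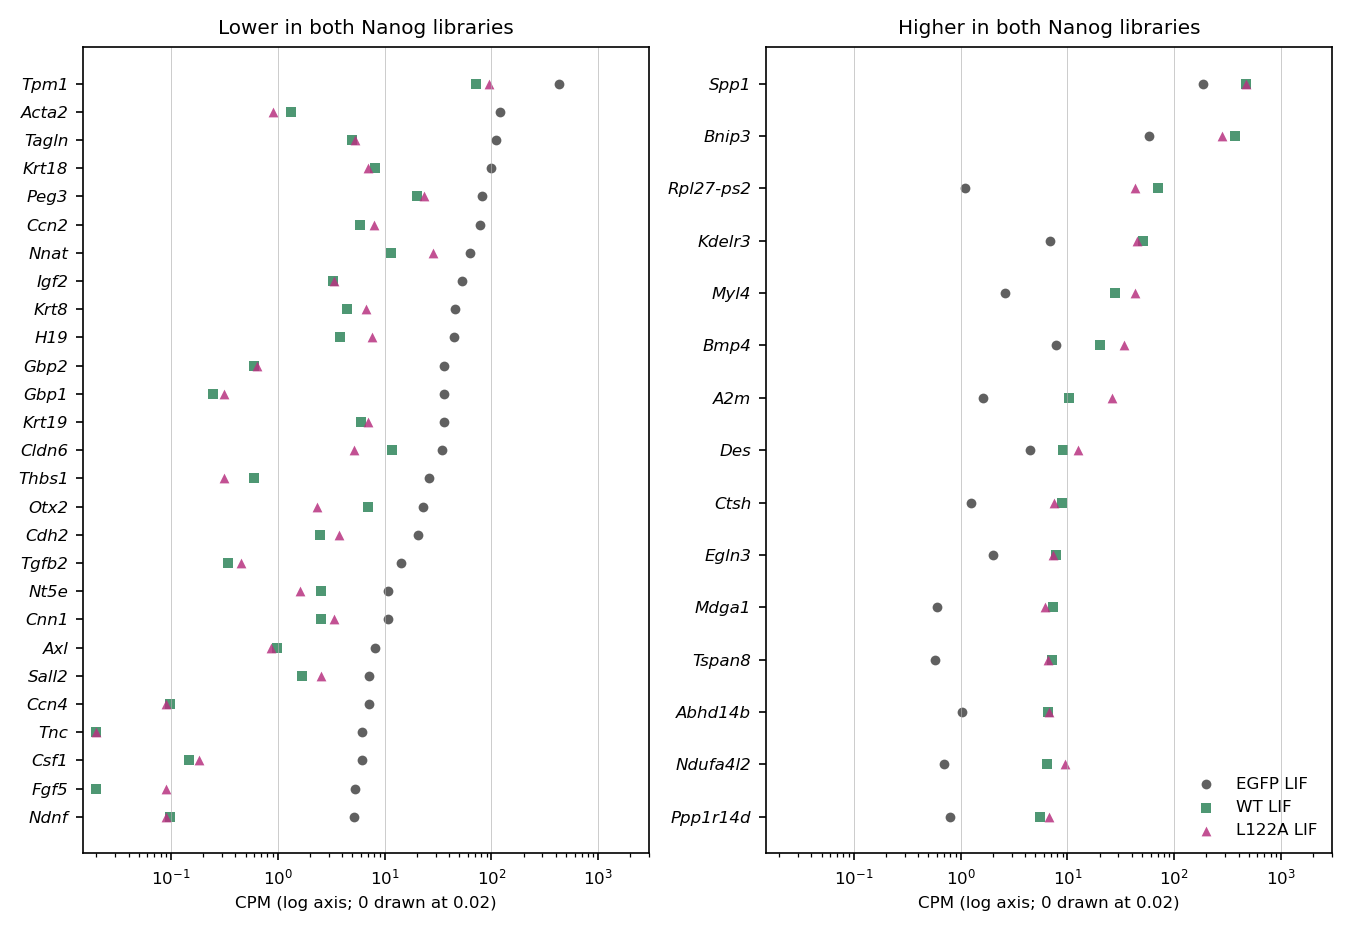
CPM of named genes (log axis, 0 drawn at 0.02) in the EGFP (circles), WT (squares) and L122A (triangles) libraries with LIF, for genes lower (left) and higher (right) in both Nanog libraries. WT and L122A symbols lie close together for most genes, and Tnc had no count in either.

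Secreted matrix and matricellular genes were next. Tnc, the matrix glycoprotein tenascin C (ENSMUSG00000028364, mm9 chromosome 4, 63620819 to 63707850), was at 6.13 CPM in EGFP and had 0 counts in WT and in L122A, at least 41.5-fold and at least 45.2-fold lower with 3 counts as the floor per library. Thbs1, thrombospondin 1, was at 25.8 CPM in EGFP against 0.592 in WT and 0.316 in L122A. Ccn2, connective tissue growth factor, was at 78.7, 5.82 and 7.87 CPM, which was 13.5-fold (11.2 to 16.4) lower in WT and lower by a ratio with an interval of 8.57 to 11.7 in L122A. Of 11 matricellular and matrix remodelling genes, 6 were lower and 1 higher (median log2 ratio -1.07 and -1.03). That higher gene, Spp1, encodes the secreted phosphoprotein osteopontin and was at 185 CPM in EGFP against 468 in WT and 466 in L122A, 2.52-fold higher in each; under total-count scaling it was not past 2-fold in both.

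Ccn2 and 8 others made the list of YAP and TEAD targets one with 9 of 14 genes lower and 0 higher (median log2 ratio -1.51 in WT and -0.99 in L122A). Tgfb2, a transforming growth factor β ligand (ENSMUSG00000039239, mm9 chromosome 1, 188447529 to 188529868), was at 14.2 CPM in EGFP against 0.345 in WT and 0.452 in L122A, 41.1-fold (19.8 to 103) and 31.4-fold (16.9 to 65.9) lower. The receptor tyrosine kinase gene Axl was at 8.07, 0.986 and 0.859 CPM. Nt5e, the cell-surface enzyme that makes adenosine, was at 10.8, 2.51 and 1.63 CPM. Ccn4, a further matricellular gene that the list does not hold, was at 7.10 CPM in EGFP and had 2 counts in each Nanog library, a ratio of 72.0-fold (19.7 to 599) and 78.6-fold (21.5 to 653). Csf1, the macrophage colony-stimulating factor, was at 6.10, 0.148 and 0.181 CPM. Ndnf, a secreted neurotrophic factor gene, was at 5.13 CPM in EGFP with 2 counts in each Nanog library.

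Collagen genes were also lower. Col1a1 was at 19.4 CPM in EGFP against 2.32 in WT and 3.57 in L122A, Col1a2 at 5.26, 0.148 and 0.407 CPM, and the fibronectin gene Fn1 at 145, 44.9 and 35.7 CPM. These were the 3 lower genes among 5 fibroblast and collagen genes at 5 CPM (median -1.16 and -0.51), and 0 were higher. The 10 fibroblast markers, which feeder cells would also carry, summed to 30.3 CPM in EGFP against 8.77 in WT and 18.1 in L122A; 2 of the 10 passed as lower. Thy1, a surface glycoprotein gene of this list, lay the other way at 1.37, 4.09 and 11.7 CPM, most of the L122A sum, and Pdgfrb, a growth factor receptor gene, at 0.771, 1.77 and 2.21 CPM. Lum was at 0 in all 3 libraries, and Col3a1, Dcn and Postn were under 1 CPM in all 3. The part of other cells in these differences was not tested. In bulk RNA, fewer cells of a type and less RNA per cell cannot be told apart.

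Epithelial keratins were lower too. Krt18 (ENSMUSG00000023043, mm9 chromosome 15, 101858659 to 101862451) was at 100 CPM in EGFP against 8.08 in WT and 7.05 in L122A, 12.4-fold (10.6 to 14.6) and 14.2-fold (12.1 to 16.8) lower. Its partner in simple epithelia, Krt8, was at 45.7, 4.44 and 6.69 CPM, and Krt19 at 35.7, 5.96 and 7.01 CPM. The tight junction gene Cldn6 was at 34.5, 11.6 and 5.15 CPM. Those 4 were the lower genes of 7 keratin and claudin genes, with 0 higher (median -0.96 and -2.35). Trophoblast markers, which share keratins, summed to 3.45, 2.86 and 1.94 CPM, with Cdx2, Elf5 and Plac1 under 1 CPM in all 3 libraries, and the trophectoderm list had 0 of 2 genes past the rule: Tfap2c was at 26.2, 11.9 and 19.6 CPM.

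Of 5 regulators of epithelial-mesenchymal transition at 5 CPM, 3 were lower and 0 higher, while the median over the 9 genes of the list whose mean level was 1 CPM or more was 0.39 in WT and 0.17 in L122A, opposite in sign to the count. The 3 were Tgfb2, the N-cadherin gene Cdh2 at 20.6, 2.46 and 3.71 CPM, and the repressor gene Zeb2 at 12.2, 3.25 and 4.79 CPM. Among 8 integrins, Itga3, the α3 laminin receptor subunit, was lower, at 42.5, 19 and 19.5 CPM, and 0 were higher. Neither of the 2 caveolar genes at 5 CPM passed the rule, Pacsin2 being at 74.0, 59.3 and 74.7 CPM.

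Basement membrane and endoderm genes formed a further group, with 4 of 9 lower and 0 higher (median -0.98 and -0.83). Col4a1 was at 26.1 CPM in EGFP against 7.10 in WT and 5.15 in L122A, and Col4a2, its divergently transcribed neighbour and partner chain, at 11.4, 3.5 and 3.48 CPM. Dab2, an endocytic adaptor, was at 16.8, 3.65 and 3.12 CPM. Cubn, an endocytic receptor, was at 9.51 and 1.13 CPM in EGFP and WT with 0 counts in L122A. The 6 transcription factor and secreted markers of extraembryonic endoderm summed to only 4.12, 1.82 and 3.53 CPM, and Gata6, Sox17, Afp and Ttr were under 1 CPM in all 3 libraries. The lower genes of this list were thus matrix and uptake genes, while the defining markers were near 0 in each library.

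The guanylate-binding protein gene Gbp1 had the largest WT ratio of the lower set. Gbp1 (ENSMUSG00000028269, mm9 chromosome 3, 142257811 to 142282140), an interferon-induced GTPase, was at 35.9 CPM in EGFP against 0.246 in WT and 0.316 in L122A, 146-fold (62.2 to 449) and 113-fold (54.8 to 283) lower. Its neighbour Gbp2 was at 36.2, 0.592 and 0.633 CPM. The family members are close in sequence, so reads may be shared between them. Other interferon genes had smaller ratios: the transcription factor gene Irf1 was at 21.7, 8.43 and 9.76 CPM and the membrane protein gene Ifitm3 at 190, 78.4 and 83.9 CPM. Together 3 of 6 interferon response genes were lower, Gbp1 not being on that list, and 0 were higher (median -1.32 and -1.17).

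Imprinted genes, expressed from 1 parental allele, held 4 lower and 0 higher of 12 (median -1.63 in WT and -0.66 in L122A), or 5 lower with total-count or RLE scaling. Igf2, the fetal growth factor (ENSMUSG00000048583, mm9 chromosome 7, 149836673 to 149852721), was at 52.6 CPM in EGFP against 3.30 in WT and 3.39 in L122A, 15.9-fold (12.5 to 20.7) and 15.5-fold (12.3 to 19.8) lower. The neighbouring H19, a non-coding RNA normally transcribed from the opposite parental allele, was at 44.4, 3.80 and 7.55 CPM, so both genes of this locus were lower. Peg3 was at 81.1, 20.3 and 23.6 CPM and Nnat at 62.8, 11.5 and 28.5 CPM. Of 7 oncofetal RNA-binding and Hmga genes 3 were lower and 0 higher: Lin28a, which blocks let-7 maturation, at 75.9, 26.9 and 28.2 CPM, Hmga2, a chromatin protein and let-7 target, at 16.3, 6.01 and 2.03 CPM, and Igf2bp3 at 20.5, 6.65 and 9.94 CPM.

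Pluripotency genes were read by stage. In the formative and primed epiblast list 6 of 11 genes were lower and 0 higher (median -1.71 and -1.45). Fgf5, the growth factor that marks exit from naive pluripotency (ENSMUSG00000029337, mm9 chromosome 5, 98683203 to 98706049), was at 5.23 CPM in EGFP, with 0 counts in WT and 2 counts in L122A. That is at least 35.3-fold lower in WT and 57.8-fold lower in L122A (15.7 to 482). Otx2, a formative transcription factor, was at 23.0, 7.05 and 2.31 CPM, Dnmt3b, a de novo DNA methyltransferase, at 137, 41.1 and 50.1 CPM, and the zinc-finger gene Sall2 at 7.10, 1.68 and 2.53 CPM. Dnmt3b was the single lower gene of 8 DNA methylation genes, with 0 higher.

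Naive factors were mostly within 2-fold: of 14 genes 2 were lower and 0 higher (median 0.12 and 0.21). Klf2 was at 64.2 CPM in EGFP against 21.9 in WT and 26.7 in L122A, and Dppa3, also called Stella, at 29.6, 7.39 and 2.12 CPM. By contrast Klf4 was at 76.8, 87.3 and 100 CPM, Esrrb at 115, 127 and 187 CPM and Zfp42 at 621, 1076 and 899 CPM. These belong to the 7 of the 14 that lay above EGFP in both libraries, while 5 lay below it in both. Among those 5 was Nr5a2, at 19.9, 14.7 and 9.72 CPM. Of 18 general pluripotency genes 2 were lower and 0 higher (median -0.40 and -0.34): Lin28a and Sall4, a zinc-finger factor of the Oct4 network, at 283, 125 and 133 CPM. Pou5f1, which encodes Oct4, was at 283, 445 and 454 CPM and Sox2 at 86.0, 58.7 and 66.4 CPM, neither past 2-fold.

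Signalling lists were read by role. In the LIF and STAT3 list 1 of 10 genes was lower and 0 higher (median -0.31 and 0.00): Pim1, a kinase gene induced by STAT3, at 12.9, 5.47 and 6.15 CPM. Stat3 itself was at 46.5, 38.0 and 47.6 CPM and its feedback inhibitor Socs3 at 18.0, 19.7 and 25.2 CPM. In the FGF and ERK list 4 of 13 were lower and 0 higher (median -0.42 and -0.27): the ligand genes Fgf5 and Fgf15, the latter at 8.84, 2.32 and 1.63 CPM, the receptor gene Fgfr2 at 10.6, 1.82 and 2.62 CPM, and the immediate-early gene Egr1 at 49.0, 10.8 and 10.9 CPM.

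The BMP list held genes of both directions, with 3 of 7 genes lower and 1 higher and a median of -0.36 in WT and 0.13 in L122A. Bmp4, the ligand (ENSMUSG00000021835, mm9 chromosome 14, 47003195 to 47010344), was higher, at 7.84 CPM in EGFP against 20.3 in WT and 33.8 in L122A, 2.59-fold (2.20 to 3.05) and 4.31-fold (3.71 to 5.01). Its target genes Id1, at 71.0, 30.8 and 33.5 CPM, Id2, at 57.6, 11.1 and 10.9 CPM, and Msx2, at 5.70, 1.68 and 2.80 CPM, were lower. Of the 9 list genes with a mean level of 1 CPM or more, 4 lay below EGFP in both Nanog libraries and 4 above it. In the Nodal list 1 of 9 was lower and 0 higher (median -0.05 and -0.34). Of 8 Wnt genes 1 was lower and 0 higher (median -0.71 and -0.74): the target gene Sp5 at 6.13, 0.739 and 1.58 CPM.

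Lineage genes were few at this level. T, or brachyury, the primitive streak factor, was at 6.73 and 0.641 CPM in EGFP and WT with 0 counts in L122A, 10.5-fold lower in WT (6.01 to 20.1) and at least 49.7-fold lower in L122A; it was 1 of 2 mesoderm genes at 5 CPM. The 3 primitive streak markers summed to 11.2, 4.73 and 3.48 CPM, but of the 3 only T passed the rule. Mixl1 was at 1.68, 1.77 and 0.316 CPM, lower in L122A alone. Eomes was at 2.81, 2.32 and 3.16 CPM, slightly above EGFP in L122A. Of 5 neural genes, 2 were lower and 0 higher: the intermediate filament gene Nes at 20.9, 4.19 and 3.34 CPM and the transcription factor gene Sox11 at 22.5, 7.25 and 4.84 CPM. The neural markers summed to 14.9, 10.5 and 10.6 CPM, nearly all of it from Pax6, an eye and forebrain factor gene, at 14.7, 10.5 and 10.6 CPM, while Sox1 and Neurog2 were under 1 CPM in all 3 libraries. Among 11 germ cell genes, Prdm1, a repressor that specifies germ cells, was lower, at 13.0, 1.38 and 3.34 CPM, and 0 were higher. Of 10 G1 cyclin and CDK inhibitor genes, the cyclin gene Ccnd2 was lower, at 5.70, 2.07 and 0.678 CPM, and 0 were higher. No gene passed in either direction among 14 DNA replication genes, where Pcna was at 492, 508 and 511 CPM, among 12 p53 targets, where Ccng1 was at 707, 890 and 814 CPM, or among 2 cleavage stage genes, where Zscan4c, one of a near-identical family, was at 15.4, 9.02 and 17.8 CPM.

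**Figure D3:**
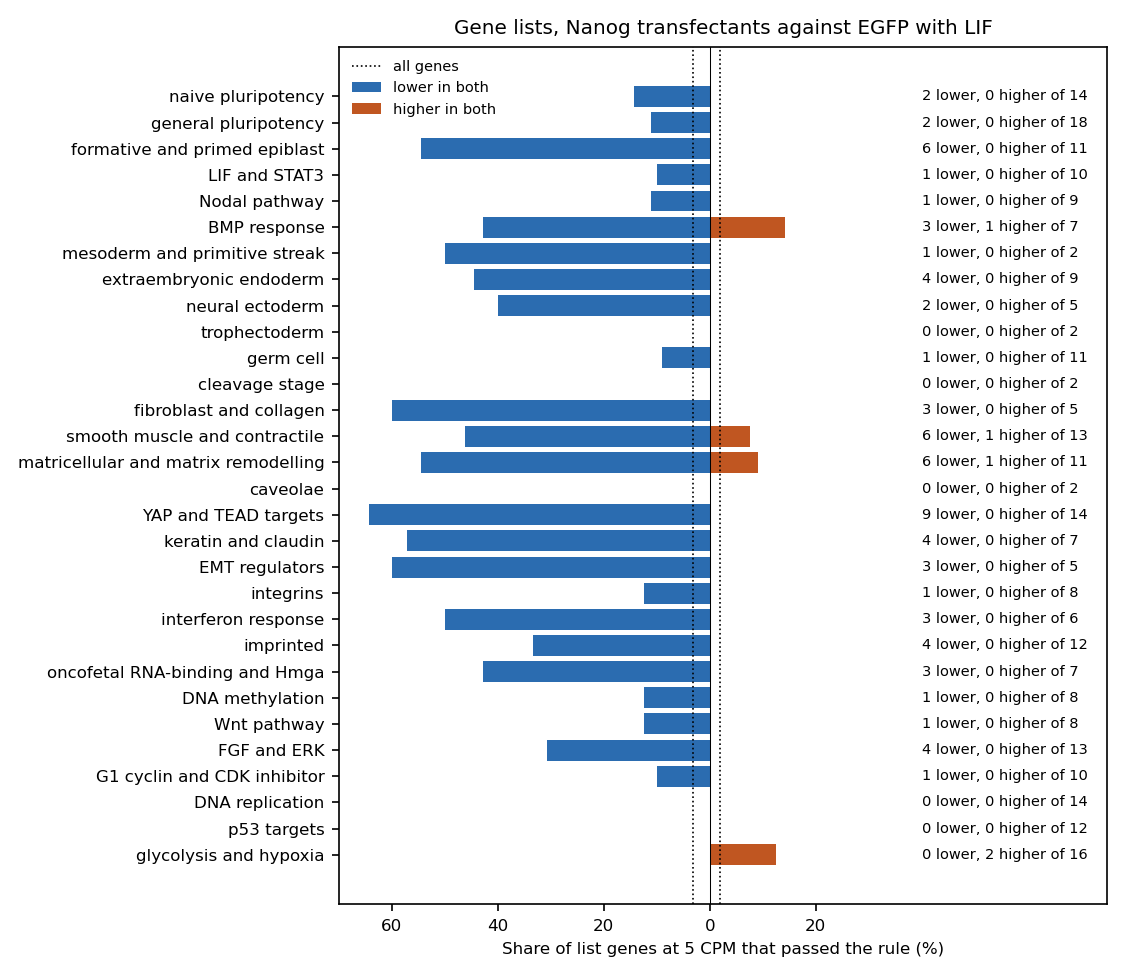
Share of each list's genes at 5 CPM that were at least 2-fold lower (blue, to the left) or higher (orange, to the right) in both Nanog libraries with LIF, with the counts at the right; dotted lines mark the shares over all genes, 3.13% and 2.00%. The YAP and TEAD list has the longest blue bar (9 of 14 lower), and the glycolysis and hypoxia list alone has an orange bar and no blue one (2 of 16 higher, 0 lower).

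Of the higher genes, Bnip3 (ENSMUSG00000078566, mm9 chromosome 7, 146082519 to 146101202), a mitophagy receptor gene that hypoxia-inducible factor (HIF) induces, was at 57.9 CPM in EGFP against 370 in WT and 278 in L122A. It was 6.38-fold (6.06 to 6.73) and 4.80-fold (4.55 to 5.07) higher. Egln3, the prolyl hydroxylase gene that HIF also induces, was at 2.01, 7.79 and 7.37 CPM. They were the 2 higher genes among 16 of glycolysis and hypoxia, of which 0 were lower and whose median log2 ratio was 0.62 in WT and 0.49 in L122A; with total-count scaling 1 was lower. The glycolytic genes stayed within 2-fold in at least 1 library: Pgk1 was at 407, 817 and 640 CPM, Ldha at 806, 1243 and 1041 CPM, and Slc2a3, the neuronal-type glucose transporter, lay the other way at 933, 436 and 491 CPM. Ndufa4l2, a further HIF-induced gene outside that list, was at 0.704, 6.41 and 9.54 CPM.

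The promoter of Bnip3 is shown because it carries the core letters of a HIF site, ACGTG, searched on both strands. Capitals mark the matches, which overlap in the palindrome.
Bnip3, chr7:138909457-138909756: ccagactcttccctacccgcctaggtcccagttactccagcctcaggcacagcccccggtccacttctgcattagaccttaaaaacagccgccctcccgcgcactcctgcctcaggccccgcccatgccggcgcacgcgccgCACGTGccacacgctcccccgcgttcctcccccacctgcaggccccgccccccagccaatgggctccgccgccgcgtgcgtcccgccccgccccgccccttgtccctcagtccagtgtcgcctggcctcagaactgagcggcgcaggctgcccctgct
The match began at -107 on the gene's strand, with an overlapping one at -108 on the other. Of all promoter windows 19.6% held these letters, and the windows of the other HIF-induced genes are not shown.

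The 10 largest ratios among higher genes came from genes at 6.94 CPM or less in EGFP. Rpl27-ps2, a processed ribosomal pseudogene (ENSMUSG00000082171, mm9 chromosome 11, 101800815 to 101801213), was at 1.11 CPM in EGFP against 70.3 in WT and 42.9 in L122A, but at 62.1 CPM in EGFP without LIF and 0.0940 in WT with RA. Its reads can come from the parent gene, so its value is uncertain. Myl4, the embryonic and atrial myosin light chain (ENSMUSG00000061086, mm9 chromosome 11, 104411977 to 104457067), was at 2.61, 27.9 and 43.1 CPM, 10.7-fold (8.40 to 13.7) and 16.5-fold (13.1 to 21.0) higher. Tspan8, a tetraspanin gene, was at 0.570, 7.15 and 6.60 CPM and Mdga1, a cell-surface adhesion gene, at 0.603, 7.30 and 6.15 CPM.

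Kdelr3, a receptor that returns proteins to the endoplasmic reticulum, was at 6.94 CPM in EGFP against 51.2 in WT and 45.1 in L122A. The protease inhibitor gene A2m was at 1.61, 10.4 and 25.9 CPM, and the lysosomal cathepsin gene Ctsh at 1.24, 8.97 and 7.46 CPM. Ppp1r14d, a phosphatase inhibitor gene, was at 0.804, 5.52 and 6.74 CPM and Abhd14b at 1.04, 6.56 and 6.69 CPM. The choice of these genes requires both Nanog libraries to lie above EGFP, and the smallest of the ratios was 6.02-fold for Ctsh in L122A.

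The 2 Nanog libraries were then set side by side, without a test. Of the 320 lower genes, 15 were at least 2-fold apart between WT and L122A, 12 of them higher in WT and 3 higher in L122A. Of the 204 higher genes, 14 were at least 2-fold apart, 3 higher in WT and 11 higher in L122A. Over all 10223 genes 360 were at least 2-fold apart. Dppa3, at 7.39 CPM in WT and 2.12 in L122A, and Otx2, at 7.05 and 2.31 CPM, were among the former, and A2m, at 10.4 and 25.9 CPM, among the latter. Both Nanog libraries share the EGFP library as their reference, so their ratios to it are not independent of each other.

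The cultures without LIF and with RA have EGFP libraries of their own and did not choose the genes. Without LIF, 160 of the 320 genes were again at least 2-fold lower in both Nanog libraries, where 6.25% of all genes were, and 8 were at least 2-fold higher (2.50%, against 4.80%). With RA, 100 (31.2%) were lower, where 6.08% of all genes were, and 12 were higher (3.75%, against 2.77%). In all 3 cultures 79 were lower. Of the 204 genes higher with LIF, 54 (26.5%) were higher without LIF and 18 (8.82%) with RA. At least 2-fold lower were 1 (0.490%, against 6.25%) without LIF and 9 (4.41%, against 6.08%) with RA. The shares over all genes cover only genes at 5 CPM in that culture. Without LIF 291 of the 320 and 178 of the 204 reached it, and with RA 270 and 141. In all 3 cultures 10 of the 204 were higher, Bnip3 and Spp1 among them. Spp1 was at 36.1, 189 and 424 CPM without LIF and at 6.54, 124 and 444 CPM with RA in EGFP, WT and L122A.

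The direction was then tested in the 6 libraries without LIF. The spread it was set against was the difference of WT and L122A and the departure from additivity, not that of repeated libraries. The test was edgeR's quasi-likelihood test of the Nanog class against EGFP with culture as a covariate and Benjamini-Hochberg adjustment over 14236 genes. It called 101 genes lower (0.709%) and 13 higher (0.0913%). Over all genes tested, 9.48% were lower and 8.36% higher at an unadjusted p under 0.05, and DESeq2 called 5.50% lower and 4.33% higher. Of the 320 genes, 314 were tested and 30 were called lower (9.38% of the 320) and 0 higher. At an unadjusted p under 0.05, 152 were lower and 11 higher, and DESeq2 called 126 lower and 8 higher. Of the 204 genes, 202 were tested and edgeR called 0; 85 were higher and 7 lower at an unadjusted p under 0.05, and DESeq2 called 66 higher and 4 lower. EGFP has 1 library per culture in this test, WT and L122A count as 2 libraries of a class, and no culture was repeated.

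Tnc fell by 5.95 on the log2 scale (SE 0.27, adjusted p = 0.00104 by edgeR), lower in 4 of 4 Nanog libraries, at 7.68 CPM in EGFP against 0.123 in WT and 0.101 in L122A without LIF and 317, 6.49 and 3.99 CPM with RA. Its call was kept without each of the 6 libraries in turn, and its adjusted p lay between 8.79e-51 (DESeq2) and 0.143 (limma on log2 of FPKM plus 1) over the alternatives. Tgfb2 fell by 4.56 (SE 0.45, adjusted p = 0.0238), Ccn2 by 2.61 (SE 0.32, adjusted p = 0.0256), Axl by 3.90 (SE 0.45, adjusted p = 0.0252) and Cnn1 by 3.69 (SE 0.52, adjusted p = 0.0455). Acta2 and Tagln, with log2 fold changes of -5.69 (SE 0.96, adjusted p = 0.0563) and -4.87 (SE 0.83, adjusted p = 0.0566), did not pass, although Acta2 was at 245 CPM in EGFP against 2.41 and 1.22 without LIF, and at 3611 against 393 and 73.1 with RA.

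Other called genes are named because they passed this test. Focal adhesion and actin-binding genes were zyxin (Zyx), vinculin (Vcl), filamin C (Flnc), Lpp and the calponin gene Cnn2. Zyx was at 39.9 CPM in EGFP against 7.15 in WT and 9.40 in L122A with LIF, and its log2 fold change in the 6 libraries was -2.20 (SE 0.25, adjusted p = 0.0238). Surface receptors were Cd44, Egfr, Lpar4, Ghr, Cdh2 and the tissue factor gene F3; Egfr, the epidermal growth factor receptor gene, was at 15.5, 4.19 and 2.85 CPM with LIF. The prostaglandin synthase gene Ptgs2, at 6.10, 0.937 and 0.497 CPM with LIF, fell by 4.71 (SE 0.36, adjusted p = 0.0111). Anxa1, Samd4, Fmr1nb, Tspan2, Nxf3, Cryab, Cyp1b1, Kctd10, Phldb2, Sfn, Nhsl1 and Prss23 were also called. Of the 320 genes, 1 was called without the L122A no-LIF library, 2 without WT no-LIF and 4 without EGFP no-LIF. Every call but that of Tnc was lost without L122A no-LIF, and without WT no-LIF Tnc kept its call.

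By list, over all its tested genes, edgeR in the 6 libraries called lower 8 of 17 contractile genes, 6 of 22 YAP and TEAD targets, 5 of 16 matricellular genes, 3 of 6 caveolar genes, 3 of 10 integrins and 2 of 18 fibroblast genes. The lists were chosen with earlier results of these data known, so counts per list are a description and no independent support. Dppa4, of the general pluripotency list, Piwil2, of the germ cell list, and Pdk1, of the glycolysis and hypoxia list, were called higher. The EMT and p53 lists held 2 lower calls each, and the formative, mesoderm, trophectoderm, keratin, Wnt and G1 lists 1 each. In the other 13 lists edgeR called 0 of 142 entries, some genes being on more than 1 list, while 25 were lower and 20 higher at an unadjusted p under 0.05 and DESeq2 called 16 lower and 13 higher, beside the shares over all genes given above. Of these, the naive list held 10 genes higher and 0 lower at an unadjusted p under 0.05 and 8 higher by DESeq2, and the imprinted list 8 lower and 0 higher at an unadjusted p under 0.05 and 6 lower by DESeq2.

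**Figure D4:**
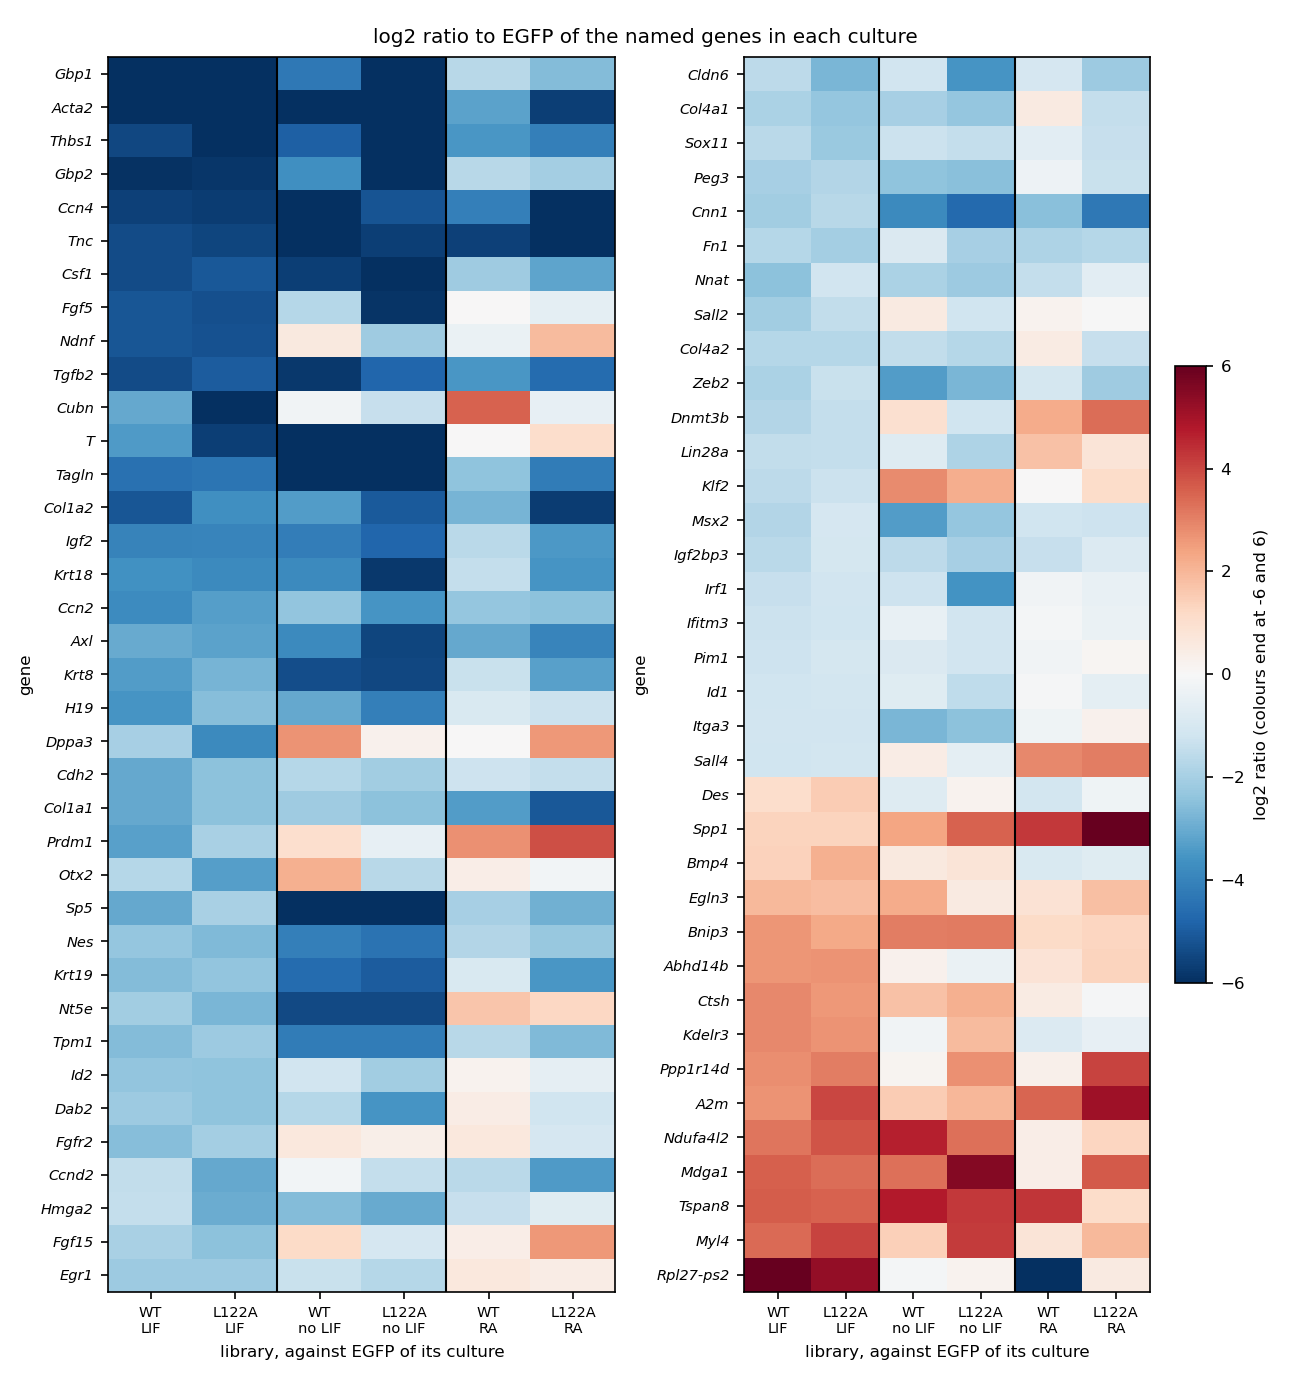
Log2 ratio to the EGFP library of the same culture for the named genes (rows) in WT and L122A with LIF, without LIF and with RA (columns); blue is lower and red higher than EGFP, and colours end at -6 and 6. Tnc, Acta2 and Tgfb2 are blue in all 6 columns, while Klf2, Sall4 and Dnmt3b turn red in a culture without LIF.

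The genes also differed in the length of their annotated features. The median feature was 4220 bp for the 320 lower genes, 2168 bp for the 204 higher genes and 3286 bp for all genes compared. Over 5 groups of equal size, from the shortest to the longest genes, the median log2 ratio went from 0.40 to -0.25 in WT and from 0.24 to -0.21 in L122A, the share lower in both from 2.05% to 5.04% and the share higher from 4.11% to 1.12%. When log2 ratios were centred within 20 groups of length, 292 genes were lower, 272 of them among the 320, and 184 were higher, 151 of them among the 204. The part of length or RNA quality in single genes was not tested. By chromosome, the median log2 ratio lay between -0.12 (chromosome 15, WT) and 0.10 (chromosome 17, L122A).

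**Figure D5:**
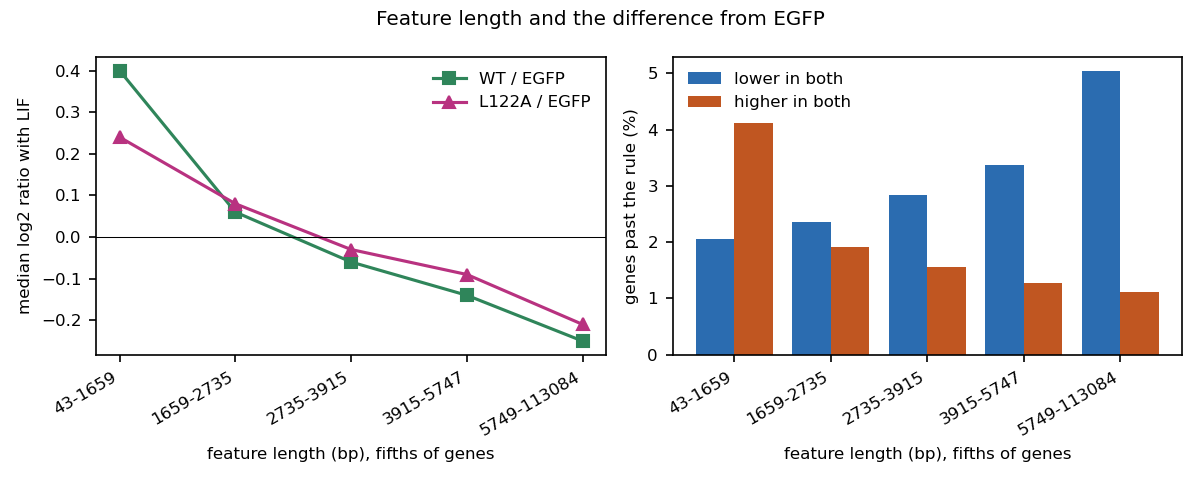
Genes with LIF in 5 equal groups by feature length (x axis, bp): the median log2 ratio to EGFP of WT and L122A (left) and the percent of genes past the 2-fold rule in both libraries (right). The shortest genes lean higher (4.11% against 2.05% lower) and the longest lower (5.04% against 1.12% higher).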

How the data were processed

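RNA of 9 libraries, 1 for each of 3 transfectants in 3 cultures, was analysed from 1 table. The submitters' processing notes name TopHat2 2.0.11 and the build mm9; how reads were counted, filtered or assigned to a strand is not given in the sources used here. Each gene of the deposited table has a raw, unnormalized count. It also holds the authors' FPKM, which equalled count over feature length and total count within 1% for 100% of genes above 5 FPKM and served as an alternative. Columns for the culture with LIF carry a name that is in no label and were assigned by elimination; L122 in column names was read as L122A. The file lists 33495 genes, of which 28692 matched a symbol of a newer annotation used for names alone. Its starts count from 0 and were raised by 1.

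CPM used TMM factors (edgeR 4.0.16) from genes that reached 1 CPM in 3 or more of 9 libraries. Counts under 3 were set to 3 in log2 ratios, so these are bounds. Since the lower direction needs 5 CPM in EGFP alone and the higher direction in both Nanog libraries, their shares are not on one footing. Ratio intervals are exact 95% Poisson intervals. List medians use genes whose mean level was 1 CPM or more. The test on 6 libraries without LIF kept genes that reached 1 CPM in 2 or more of them (3 residual df, a biological CV of 0.340, adjusted p threshold 0.05); its SE is the size of the log2 fold change divided by the root of the F statistic, its spread is the departure from additivity and the difference of WT and L122A, and its p-values do not cover replicate cultures. On simulated data with 200 changed genes among 14236 it recovered 5.0% at 2-fold, 77.6% at 4-fold and 95.2% at 8-fold with 2 false calls. The simulation gave all genes a common spread and WT and L122A the same effect in both cultures. The real libraries need not meet this, so these rates do not carry over to them. Promoters matched by symbol for 242 of 320 lower genes (75.6%) and 156 of 204 higher genes (76.5%), under the 80% needed for shares over the sets, so none is given.

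Named are Nanog, the 10 lower and 10 higher genes with the largest smaller ratio, and per list up to 4 genes past the rule in each direction with the largest smaller ratio, or else the gene with the highest mean CPM; genes set beside these for contrast, and those named for the test on 6 libraries, were chosen after their values were seen. Some genes named by this rule or called by the test are not reported here. The members and the 30 gene lists (379 of 386 genes matched) were chosen with earlier results of these data known. DESeq2 1.42.0 and limma 3.58.1 in R 4.3.3 gave alternatives, and the rest used Python 3.11.15 with scipy 1.17.1, pandas 2.3.3, numpy 2.4.6 and, for figures, matplotlib 3.10.9.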

Additional observations from a re-analysis of the deposited data

Results flagged for a closer look

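Of the 320 genes lower in both Nanog libraries with LIF, 8 were at least 2-fold higher in both without LIF and 12 with RA; those named in the text are given here as values, and the difference between cultures was not tested. Klf2, lower with LIF, was at 6.04 CPM in EGFP against 43.3 in WT and 27.6 in L122A without LIF, at least 4.57-fold higher in each. Sall4 was at 14.1, 104 and 119 CPM with RA, at least 7.37-fold higher. Dnmt3b was at 4.96, 23.4 and 51.3 CPM with RA, at least 4.72-fold higher. Prdm1 was at 2.15, 14.3 and 31.0 CPM with RA, at least 6.64-fold higher. Nt5e was at 2.93, 9.24 and 6.85 CPM with RA, at least 2.34-fold higher.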

How the results depend on the processing

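Genes lower and higher in both Nanog libraries with LIF numbered 320 and 204 (61.1% lower), 330 and 185 with RLE factors, and 526 and 101 with total counts (83.9% lower); all 320 stayed among the 526 and all 101 were among the 204. Totals without ribosomal RNA and mitochondrial genes gave 469 and 152 (75.5% lower), which held all 320 lower genes and 137 of the 204 higher genes. A minimum of 1 CPM gave 661 and 560 and one of 20 CPM gave 120 and 70. A fold threshold of 3 gave 136 and 59, and deposited FPKM with a minimum of 1 FPKM gave 770 and 296 (72.2% lower). The FPKM sets held 299 of the 320 lower genes but only 104 of the 204 higher genes. With 1 Nanog library left out the counts were 519 to 528 lower and 445 to 520 higher. Of 162 log2 ratios of named genes 58 moved with total counts and 0 with RLE factors. Those of genes past the 2-fold rule kept their sign, while 4 of genes within it changed sign with total counts (Pcna in both libraries, at -0.30 and -0.13, Ccng1 in WT, at -0.01, and Pacsin2 in L122A, at -0.17) and 1 with RLE factors (Pacsin2 in L122A, at -0.01). Leaving out genes under 1000 bp with ribosomal RNA and mitochondrial genes (309 and 159) and centring by length were chosen after seeing the data.

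In the 6 libraries without LIF, 101 and 13 genes were called. Total counts gave 51 and 4, no filter on low counts 480 and 258, all 9 libraries, which include those that chose the genes, 329 and 95, and DESeq2 783 and 616. With 1 library left out the counts were 1 to 238 lower and 1 to 157 higher, lowest without L122A no-LIF and highest without WT RA; the arm then left with 1 library is assumed to vary like the others. The cause of these differences was not tested. No paired analysis was possible because the labels give no replicate numbers, with 1 library per combination; culture, which the transfectants share, is already a term of this test. Log2 ratios with a count under 3 (0.101 to 0.148 CPM with LIF) are bounds; folds printed for 1 or 2 counts are the measured ones with their intervals.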
